A study of Mus musculus with 2 samples.

Results

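The Hox genes of the 4 clusters, Hoxa, Hoxb, Hoxc and Hoxd, were examined in a promoter-array map of Tcf3 binding in mouse embryonic stem cells of the line E14, grown without feeder cells. Members were the genes whose array annotation was Hox, a cluster letter from a to d and a number, alone or in a hyphen-joined pair, and 33 of the 17032 genes on the arrays met this rule, with 1245 probes. Array 1 carried the 10 Hoxa genes (chromosome 6) and the 8 Hoxd genes (chromosome 2), and array 2 the 7 Hoxb genes (chromosome 11) and the 8 Hoxc genes (chromosome 15), so a difference between these pairs of clusters and one between the arrays cannot be told apart. The remaining Hox genes are not analysed here. DNA precipitated with Tcf3 was labelled with Cy5 and input DNA with Cy3. Both were hybridised together, and each array held a different part of the promoter set. Every Hox gene was therefore measured on 1 array, with no replicate and no control precipitation in these data. The antibody used for the arrays, and whether both arrays received the same precipitate, are not given in the sources used here beyond the name Tcf3 in the sample titles.

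Hox genes encode homeodomain transcription factors that specify position along the head to tail axis of the embryo. Each cluster holds genes in an order that matches their order of use, with low-numbered genes active early and towards the head and high-numbered genes late, towards the tail and in the limb and urogenital buds. Genes with the same number in different clusters descend from one ancestor and form a paralog group. In embryonic stem cells the clusters are textbook targets of Polycomb silencing. Tcf3 (current symbol Tcf7l1) belongs to the Tcf/Lef proteins, the nuclear end of Wnt signalling, which recognise DNA around a CTTTG core. In embryonic stem cells it is known mainly as a repressor.

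The value of a probe was the log2 ratio of Cy5 (precipitate) over Cy3 (input), centred on the median of its array. Each probe was joined with the next one to its left and to its right, where these lay within 1000 bp, and these 2 or 3 probes are called a set. A gene is described by its highest set mean ± SD over the probes of that set. This SD is scatter along the DNA and not an error between experiments. A probe was called when its set mean and its own or its neighbours' values passed the array's scatter (a normal tail of 0.001 for the set), and a gene was called when 1 of its probes was. These tails served as a calling rule and are no test. Where the signal of a channel was not above background, the scanner software had written a surrogate value, so each result is given with all spots and with measured spots, those without a surrogate. Of the Hox probes, 75.8% were measured on array 1 and 56.7% on array 2, against 69.3% and 48.2% of all probes, and measured values were centred anew, which raised them by 0.04 on array 1 and by 0.18 on array 2. In GC-adjusted values, the median log ratio of probes of like GC content (2% bins) was subtracted from the measured spots.

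The stretches of DNA below lay in high sets of these genes. They are copied from the array's probe list as the plus strand of the array's coordinates, with a genome build not given in the sources used here. All 27 probes that matched a RefSeq promoter sequence (GRCm38.p6) of a Hox or Evx gene lay on that strand. The first 4 came from GC-rich probes, of which the last 3 are the only Hox probes with CGGCGGC, in capitals on either strand. In Hoxa13 its copies overlap.
Hoxd13, chr2:74512136-74512165: cggcttcctgtcggcgccggtgttcgcggg
Hoxd9, chr2:74542054-74542083: ctggctGCCGCCGagccgggacgctacgta
Hoxa13, chr6:52223658-52223687: gacgagctctgtGCCGCCGCCGagcaggga
Hoxb9, chr11:96380834-96380863: agggcgcgcCGGCGGCcgaaagcaggtacc

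The next stretches came from probes of low or middle GC content. The Hoxd10, Hoxd11, Hoxd12 and Hoxb1 probes lay upstream of a transcription start and are shown whole, and the others as 30 bases of the probe. Capitals mark CTTTG followed by AT, AA, TT or TA, on either strand. The Hoxc13 probe shown was itself low, at -0.33 with measured spots, and the Hoxc10 probe lay outside the highest set of its gene. The high probes of the highest sets of these 2 genes held no such motif and are not shown. The stretches are therefore no measure of how frequent the motif is, which 6.27% of Hox probes held.
Hoxd10, chr2:74532374-74532433: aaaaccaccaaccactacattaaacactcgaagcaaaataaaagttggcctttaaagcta
Hoxd11, chr2:74522745-74522802: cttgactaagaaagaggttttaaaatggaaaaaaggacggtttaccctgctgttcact
Hoxd11, chr2:74522890-74522941: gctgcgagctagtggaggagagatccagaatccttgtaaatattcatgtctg
Hoxd12, chr2:74516361-74516420: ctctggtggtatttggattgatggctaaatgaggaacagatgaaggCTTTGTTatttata
Hoxb1, chr11:96474254-96474303: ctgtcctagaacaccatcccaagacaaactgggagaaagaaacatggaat
Hoxb13, chr11:96299397-96299426: aggtaaacagactcttaactttcaacttgg
Hoxc12, chr15:102917885-102917914: gaccgtgactaggtctttctgaccttgaca
Hoxc13, chr15:102903627-102903656: ctgtgactttgtCTTTGATacagtgggtca
Hoxc10, chr15:102955079-102955108: ttgtgtgtggtgCTTTGTAtaaggtttata

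With all spots, 5 Hox genes were called: Hoxa10, Hoxa13, Hoxd9, Hoxd10 and Hoxd13. This share of 15.2% was close to the 13.0% of all genes that were called. With measured spots 10 Hox genes were called, or 30.3%, against 13.7% of all genes. They were Hoxa10, Hoxa13, Hoxb9, Hoxb13, Hoxc10, Hoxc12, Hoxc13, Hoxd9, Hoxd11 and Hoxd13. Hox genes had a median of 40 probes, and genes with more probes have more chances of a call. Of the 17 Hox genes with 31 to 45 probes, 0 were called with all spots, where 16.4% of all genes with that many probes were, and 4 with measured spots, where 18.5% were. By probe, 10 of 1245 Hox probes were called with all spots, or 0.803%, against 1.14% of all probes, and 17 of 839 measured Hox probes with a neighbour, or 2.03%, against 1.38%. With GC-adjusted values, 10 Hox genes were called, against 13.3% of all genes, and 6 of the 17 genes with 31 to 45 probes, against 17.8%. Among these values 17 Hox probes were called, or 2.03%, against 1.32% of all probes. When the GC trend was taken from all spots instead, 8 Hox genes were called, against 10.7% of all genes.

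The called Hox genes had high numbers. Of the 16 genes of paralog groups 9 to 13, which pattern the hind part of the trunk, the limbs and the urogenital tract, 5 were called with all spots and 10 with measured spots. Of the 17 genes of groups 1 to 8, used in the hindbrain and the front of the trunk, 0 were called in either setting. On array 1, 5 of 9 high-numbered genes were called with all spots, where 22.2% of all genes of the array were, and 5 with measured spots, where 1354 of 8339 genes (16.2%) were. On array 2, 0 of 7 were called with all spots, where 3.59% of all genes were, and 5 of 7 with measured spots, where 879 of 8003 genes were. The division at group 9 was chosen after the values were seen and has no test. High-numbered genes had a median of 43 probes and low-numbered genes of 36. Their probes were alike in median GC content (41.5% and 41.8%) and in the share measured (67.7% and 67.6%).

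The median over genes of the highest set mean was 1.74 in groups 9 to 13 and 1.02 in groups 1 to 8 with measured spots, while it was 0.98 over all genes. This difference was in the highest sets and not in the medians over all measured probes, which were 0.08 in groups 9 to 13 and 0.09 in groups 1 to 8. With GC-adjusted values, 8 of 16 high-numbered and 2 of 17 low-numbered genes were called, the latter being Hoxb1 and Hoxd3. In that setting 4 of 9 high-numbered genes were called on array 1, where 1588 of 8339 genes were, and 4 of 7 on array 2, where 586 of 8003 were (7.32%). All 4 genes of group 13, the last of each cluster, were called with measured spots, and 2 of the 4 of group 9.

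**Figure D1:**
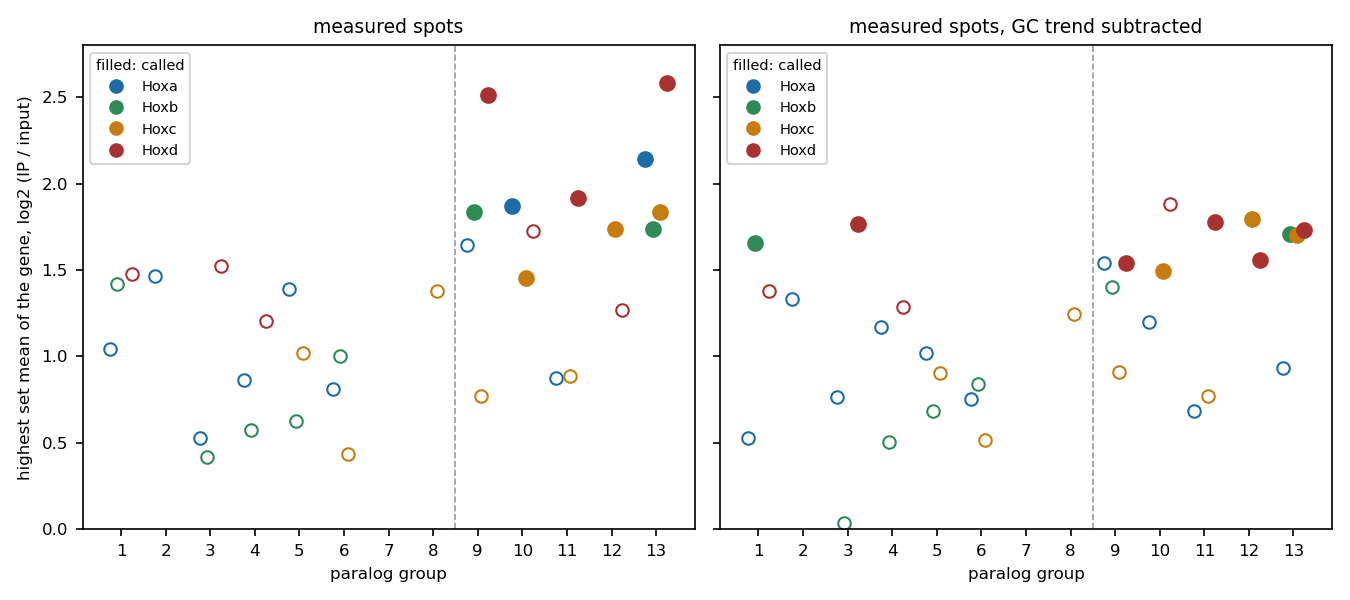
Highest set mean of each Hox gene, log2 of precipitate over input, by paralog group, with measured spots (left) and GC-adjusted (right). Filled circles are called genes and open circles are not, colours give the cluster, and the dashed line divides groups 1 to 8 from 9 to 13. On the left all 10 called genes lie right of the line, and on the right 8 of 10 do.

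The Hoxd cluster had the highest values of the 4 clusters. Its 8 genes ranged from 1.17 (Hoxd4) to 2.54 (Hoxd13) in highest set mean with all spots, with a median of 1.66. Over all genes of both arrays the median was 1.15, and none is given here for array 1 alone. Of the 8 genes, 3 were called with all spots and 3 with measured spots, where 22.2% and 16.2% of all genes of array 1 were. GC-adjusted, 5 were called, where 19.0% of the genes of array 1 were. Hoxd13, needed for digits and the genital bud, had a set of 1.67, 1.42 and 4.53, a mean of 2.54 ± 1.73 (SD, 3 probes) and a 5.82-fold excess of precipitate over input. The probe at 4.53, the highest of all Hox probes, was centred 210 bp after the start of Hoxd13 found by matching the RefSeq promoter to the array. The next probe downstream was at 0.59, and those before it were between 1.42 and 2.13, as far as a probe centred at -376 bp from the start. GC-adjusted, the set stood at 1.81, -0.03 and 3.42, with a mean of 1.73 ± 1.73 (3.32-fold), and was called. A higher set mean than that of Hoxd13 was found in 0.787% of all genes with all spots and in 6.23% GC-adjusted.

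Hoxd9, used in the limb and lower spine, had a set of 3.67, 2.15 and 1.61, with a mean of 2.48 ± 1.07 (5.56-fold; chromosome 2, 74542054 to 74542482). The probe to the left of the set was at 1.48, so that all 4 neighbours were high, at GC contents of 55.6% to 71.1%. GC-adjusted, the highest set of Hoxd9 was 1.04, 2.35 and 1.23, with a mean of 1.54 ± 0.71, and was called. Hoxd9 and Hoxd13 were called under all 12 settings tried.

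Hoxd10, a motor neuron and limb gene, had a set of 0.69, 2.17 and 3.93, with a mean of 2.27 ± 1.62 (4.81-fold), centred at -3353 bp from its start. Its value of 2.17 was a surrogate, and the probe at 3.93 had 35% GC. Without surrogates the set reached farther left and held 0.48, 0.73 and 3.97, a mean of 1.73 ± 1.95 that was not called. The next measured probe to the right was at -0.07. The strong value of this stretch thus came from 1 measured probe. With all spots, a probe centred 2742 bp after the start was called too. Its set stood at 0.88, 2.14 and 2.11 (1.71 ± 0.72), with 2 surrogates.

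Hoxd11, a kidney and forelimb gene with 2 matched starts, had high values at both. Just after the later start, probes of 1.62, 2.20 and 1.81 gave 1.88 ± 0.30, not called with all spots, and 1.92 ± 0.30 with measured spots, called. These 3 probes had a mean GC content of 68.9%, and their GC-adjusted values were 0.97, 0.89 and 0.25. Before the earlier start, 3 probes of 40.9% mean GC had GC-adjusted values of 1.49, 2.06 and 1.79, a mean of 1.78 ± 0.29 centred at -484 bp, and were called. Their neighbour on the right was at 1.40.

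Hoxd12, a limb gene, had a set of 0.79, 2.21 and 0.68 (1.23 ± 0.85) centred at -2294 bp from its start. It was not called with all or measured spots and was called GC-adjusted, at 1.56 ± 0.86. Of the low-numbered Hoxd genes, Hoxd1 was the highest uncalled gene with all spots, at 1.03, 1.18 and 2.10 (1.44 ± 0.58), and Hoxd3 with measured spots, at 1.38, 2.06 and 1.13 (1.52 ± 0.48). GC-adjusted, Hoxd3 stood at 1.76 ± 0.50, called, and Hoxd1 at 1.38, not called. Hoxd4 had a set of 2 probes, at 1.15 and 1.18.

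**Figure D2:**
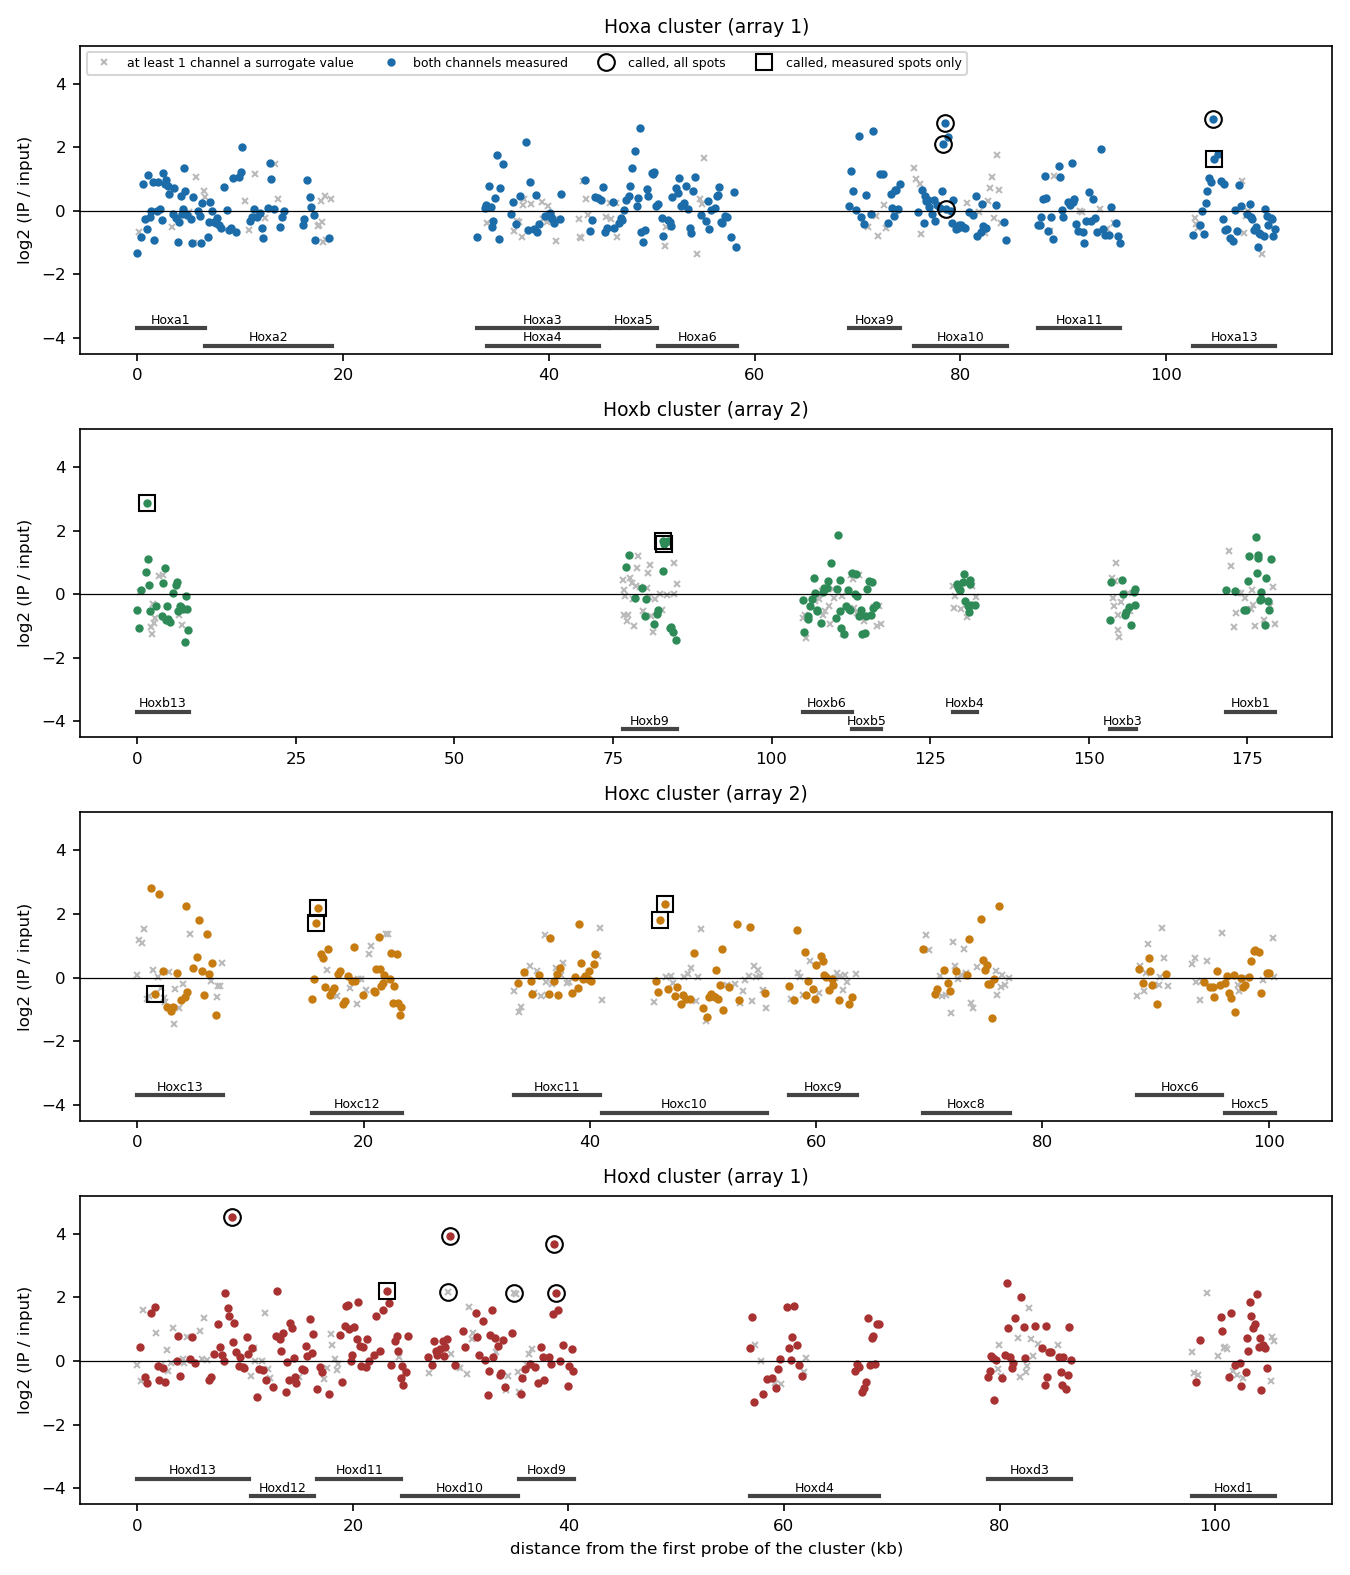
Log2 ratio of precipitate over input of every Hox probe (all spots) against its distance in kb from the first probe of its cluster. Coloured dots are measured probes and grey crosses hold a surrogate, circles mark probes called with all spots, squares those called only with measured spots, and bars below give the span of each gene's probes. The 3 highest points, at 4.53, 3.93 and 3.67, lie in Hoxd13, Hoxd10 and Hoxd9.

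In the Hoxa cluster 2 of 10 genes passed in either setting, Hoxa13 and Hoxa10, both at GC-rich probes after the start. Of all genes of array 1, 22.2% were called with all spots and 16.2% with measured spots. Hoxa13, a gene of the hand, foot and urogenital tract, had probes at 2.90, 1.62 and 1.80, with a mean of 2.11 ± 0.69 (4.30-fold) and a mean GC content of 68.1%. Their GC-adjusted values were 1.58, -0.23 and 1.45, a mean of 0.93 that was not called. Hoxa10, a uterus and hindlimb gene, had probes at 0.63, 2.09 and 2.77, with a mean of 1.83 ± 1.1 (3.56-fold), and a GC-adjusted mean of 1.20 ± 0.62, not called. A called set of Hoxa10 with measured spots was centred on a probe at 0.10 between neighbours at 2.81 and 2.35, and this low probe is the one with CTTTGAT. The highest uncalled Hoxa genes were Hoxa2, a hindbrain gene, at 1.05, 1.21 and 2.01 with all spots (1.42 ± 0.51), and Hoxa9, at 2.56, 1.18 and 1.20 with measured spots (1.65 ± 0.79). Hoxa5, a lung and neck gene, had a probe at 2.59, centred at -85 bp from its start, in a promoter whose highest set mean was 1.35. The lowest Hoxa gene with all spots was Hoxa3, at 0.49, with 8 probes, the fewest of the 33. That set mixed probes named Hoxa3 and Hoxa4 and was centred 12255 bp after the matched Hoxa3 start, so it does not describe the DNA at that start. After GC adjustment, of all or of measured spots, 0 of the 10 Hoxa genes were called. With all spots GC-adjusted, 10.7% of all genes of both arrays were called, and with measured spots 19.0% of those of array 1.

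In the Hoxc cluster, 0 of 8 genes passed with all spots and 3 with measured spots. Hoxc12 stood at 1.91, 2.39 and 0.92 with measured spots (1.74 ± 0.75) at a mean GC content of 48.5%, and at 1.79 ± 0.81 GC-adjusted, called in both. Hoxc10, a motor neuron gene, was called from probes at 2.01 and 2.51 beside 1 at -0.16 (1.45 ± 1.42), and kept its call GC-adjusted (1.49 ± 1.52). Hoxc13, a hair and nail gene, had measured probes at 3.00, -0.33 and 2.83 (1.83 ± 1.87). Its called probe was the low one, which holds CTTTGAT. Between the 2 high probes lay also surrogate probes at 0.23 and 0.004 with all spots, on either side of the low one. The high probes are thus neighbours of the low one only where surrogates are left out. With measured spots, Hoxc8, the highest uncalled Hoxc gene, had a highest set of 2 probes, at 2.03 and 0.72. The highest set means of Hoxc9 and Hoxc6 were 0.77 and 0.43.

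In the Hoxb cluster the calls were 0 of 7 genes for all spots and 2 for measured spots. Hoxb13, a tail and prostate gene that lies far from the rest of its cluster, stood at 0.87, 3.04 and 1.30 (1.73 ± 1.15), and at 1.71 ± 1.34 GC-adjusted, called in both. Hoxb9 had 3 nearly equal measured probes of 1.87, 1.77 and 1.87 (1.83 ± 0.06), and was not called GC-adjusted, at 0.59, 1.53 and 2.08. A surrogate probe at -0.01 stood between the second and the last of them. Hoxb1, a hindbrain gene and the highest uncalled one of its cluster with measured spots, had probes at 1.80, 0.67 and 1.15 with all spots, centred at -383 bp from its start. It was called GC-adjusted, from 2 probes at 2.19 and 1.12. Hoxb3 to Hoxb6, in the middle of the cluster, were low: their highest set means with all spots were 0.34, 0.27, 0.58 and 0.82, and Hoxb4 and Hoxb3 were the lowest of all 33 genes. Higher set means were found in 95.8% and 94.3% of all genes. Hoxb3 to Hoxb6 had 22, 20, 24 and 43 probes, against a median of 40 in the Hox genes. The set of Hoxb3 held 3 surrogates. With measured spots the highest set means of Hoxb3 to Hoxb6 were 0.42, 0.57, 0.63 and 1.00. Hoxc6 (0.43) and Hoxa3 (0.53) then lay below Hoxb4.

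**Figure D3:**
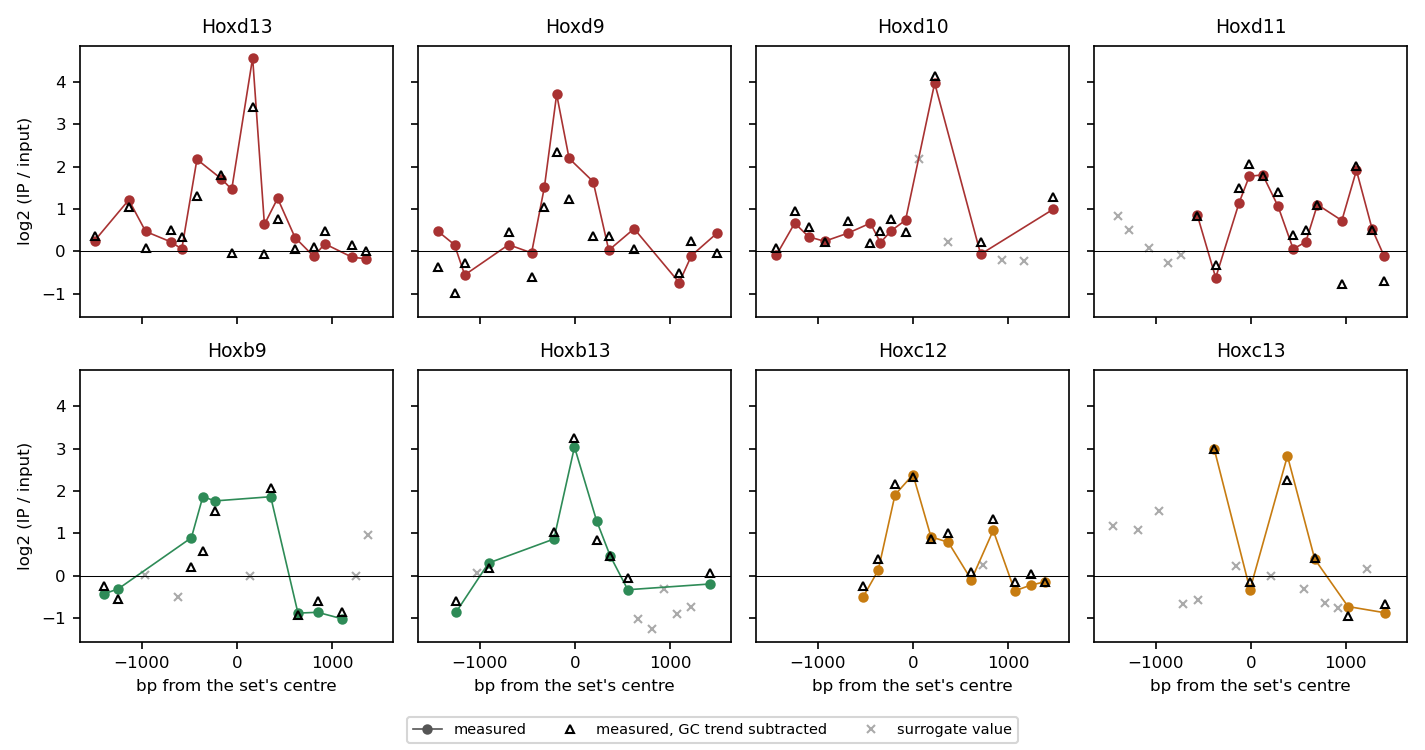
Log2 ratio of precipitate over input of the probes within 1500 bp of the centre of the highest set of 8 Hox genes, with measured spots, except Hoxd11, whose panel is centred on its highest GC-adjusted set. Dots with lines are measured probes, triangles their GC-adjusted values, and crosses surrogate values from all spots. Hoxd10 has 1 measured probe at 3.97, with measured probes at 0.48 and 0.73 in its set and a surrogate at 2.17 next to it. Hoxd11 has a run of 3 probes at 1.15, 1.77 and 1.81. Hoxc13 has a low measured probe between 2 high ones, with surrogates on either side of it.

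The sets differed in shape, which bears on how much each value rests on 1 probe. Chromatin fragments averaged 500 bp, per the labels' protocols, and Hox probes lay a median of 171 bp apart, so neighbours sample overlapping fragments. With measured spots, the 3 probes of Hoxb9 had an SD of 0.06, and those after the later start of Hoxd11 of 0.30. GC-adjusted, the SD of the same Hoxb9 probes was 0.75. Hoxd13, Hoxd10 and Hoxc13 had an SD of 1.73, 1.95 and 1.87 with measured spots, against means of 2.58, 1.73 and 1.83. Across 727 pairs of neighbouring measured Hox probes within 500 bp, Pearson's r of their log2 ratios was 0.30, and 0.18 GC-adjusted. Over all 210380 pairs on the arrays it was 0.24 and 0.13. These correlations are descriptions over probes that share a hybridisation and base composition.

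Hox probes differed little from other probes of the same array and GC content. With all spots, the median difference was 0.06 on array 1 and -0.04 on array 2, and with measured spots 0.11 and 0.10. Among probes with 40% GC or more, high values were most frequent at high GC content in Hox and other probes alike. Of the measured Hox probes with 60% GC or more, 51.5% had a log2 ratio above 1, against 45.2% of other probes, and 9 of these 68 Hox probes were called, where 9.05% of other probes were. Of the 267 with 40% to 45% GC, 7.12% were above 1, against 8.41% of other probes. Between 50% and 55% GC the shares were 21.3% of 89 Hox probes and 12.9% of other probes. At the low end, below 35% GC, 2 of 15 Hox probes (13.3%) and 29.4% of other probes were above 1. Of the 10 genes called with measured spots, 6 had their highest set at a mean GC content of 57.7% or above: Hoxa10, Hoxa13, Hoxb9, Hoxd9, Hoxd11 and Hoxd13. GC-adjusted, Hoxd9 was called at a set 1 probe to the left, Hoxd13 at the neighbour of the probe called before and at probes farther upstream, Hoxd11 was called at its other stretch, and Hoxa10, Hoxa13 and Hoxb9 were not called. The other 4 genes, Hoxc12, Hoxc10, Hoxc13 and Hoxb13, had a mean GC content of 36.4% to 48.5% and were called in both.

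**Figure D4:**
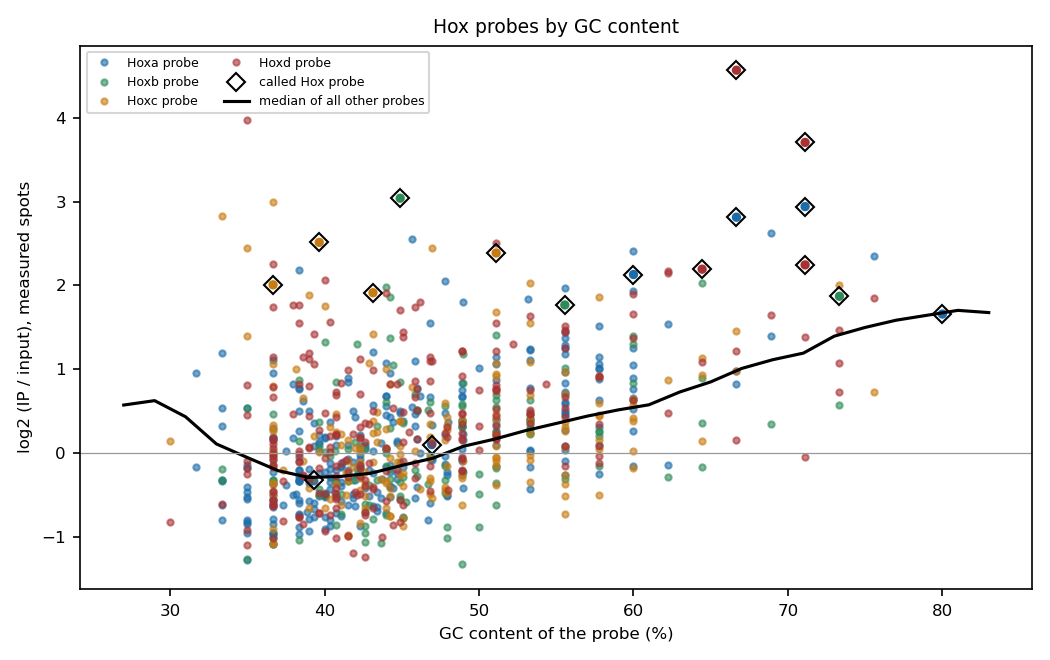
Log2 ratio of precipitate over input of the 842 measured Hox probes against their GC content in percent. Colours give the cluster, diamonds mark the 17 probes called with measured spots, and the line is the median of all other probes in bins of 2% GC. The called probes fall into a group at 55.6% GC and above and another at 51.1% and below.

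A transcription start could be placed in array coordinates for 15 Hox genes, by finding their RefSeq promoter sequence among the probes. Apart from Hoxb1 and Hoxb4, these were Hoxa and Hoxd genes of array 1, and no Hoxc gene was among them. Measured probes of these genes were high around the starts. The median was 0.40 in the 500 bp before the start and 0.61 in the 500 bp after it. From 500 to 1000 bp after it, the median was 0.75. It was -0.16 from 4000 to 2000 bp before the start and -0.07 from 1000 to 2000 bp after it. Median GC content was 45.1%, 53.3% and 48.9% in the first 3 of these windows and 40.0% and 43.1% in the other 2, so it was highest in the 500 bp after the start and the log ratio in the window after that. GC-adjusted, the 5 medians were 0.36, 0.39, 0.48, 0.03 and 0.12. Each of these windows held 33 to 76 measured probes of 12 to 14 genes. The windows from 2000 to 1000 bp and from 1000 to 500 bp before the start had medians of 0.38 and 0.10, at 40.0% and 41.8% GC, so the medians did not fall evenly with distance.

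Tcf/Lef motifs were counted in the probe sequences. CTTTG followed by AT, AA, TT or TA, on either strand, occurred in 78 Hox probes, or 6.27%, and in 5.69% of other probes. Measured Hox probes with 1 of them had a median of -0.10, against 0.10 without, and other probes -0.12 against 0.01. The GC-adjusted medians were 0.01 with and 0.11 without in Hox probes, and 0.02 and -0.0013 in other probes, where the direction turned. Of the 17 Hox probes called with measured spots, 2 held a motif (11.8%), against 3.63% of the called other probes, and GC-adjusted it was 3 of 17, against 6.69%. Both with measured spots had CTTTGAT and were the low probes of Hoxa10 (0.10) and Hoxc13 (-0.33) between high measured neighbours. With measured spots, motif probes above 2 were limited to that of Hoxd12, with CTTTGTT at 2.25. That of Hoxc10 with CTTTGTA stood at 1.88. GC-adjusted, the Hoxd12 and Hoxc10 probes stood at 2.54 and 2.06, and a Hoxd4 probe with CTTTGTA at 2.11. The 3 called GC-adjusted were that of Hoxd12, a Hoxd13 probe with CTTTGAT (1.89) and the low one of Hoxc13 (-0.15). Within 500 bp of the centre of the highest set, 2 of the 10 genes called with measured spots had a probe with a motif, and 3 of the 10 called GC-adjusted. Of all called genes, 17.0% and 25.8% had one in such a window. Probes cover only part of the DNA between them, so these counts concern the probe letters alone. The GC-rich motif CGGCGGC occurred in 3 Hox probes (0.241%) and in 0.151% of other probes. Their measured values were 3.71 (Hoxd9), 2.94 (Hoxa13) and 1.87 (Hoxb9), and other probes with it had a median of 2.35. GC-adjusted, the 3 Hox probes stood at 2.35, 1.58 and 0.59, and other probes with it had a median of 1.21. All 3 were called with measured spots and 1 of them GC-adjusted.

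Genes next to the clusters were examined as well. Of 8 flanking genes, 2 were called with all spots, where 13.0% of all genes were, 3 with measured spots, where 13.7% were, and 2 GC-adjusted, where 13.3% were. Evx1, a homeobox gene beyond Hoxa13, reached 2.13 ± 0.42, and 2.22 ± 0.49 GC-adjusted, above every gene of the 4 clusters in that setting. Evx2, beyond Hoxd13, shared its highest set with Hoxd13, through probes annotated to both. Hibadh, a metabolic gene, was called with all spots at 1.94 ± 0.06 from 3 surrogate values and stood at 0.98 with measured spots. Lnpk, an endoplasmic reticulum gene beyond Evx2, was called with measured spots, at 1.71 ± 1.14, and not GC-adjusted, at 0.90.

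Of the 7 cofactors on the arrays, the Pbx, Meis and Pknox homeodomain proteins that bind DNA together with Hox proteins, Pknox2 was called with all spots (1.72 ± 0.62). Pbx3 joined it with measured spots (1.70 ± 0.54), and 0 of the 7 were called GC-adjusted. The shares of all genes called in these 3 settings were 13.0%, 13.7% and 13.3%. Of 26 genes that regulate the clusters, 3 were called with all spots (11.5%, against 13.0% of all genes), 7 with measured spots (26.9%, against 13.7%) and 6 GC-adjusted (23.1%, against 13.3%). Phc1, a Polycomb subunit, reached 2.28 ± 0.27, and 2.51 ± 0.30 GC-adjusted. Cdx1, a caudal factor that activates Hox genes, reached 2.20 ± 0.65, and 2.33 ± 0.59 GC-adjusted. Of 89 homeobox genes outside the clusters, 18 were called with all spots (20.2%, against 13.0% of all genes). With measured spots 18 were called (20.2%, against 13.7%), and GC-adjusted 21 (23.6%, against 13.3%). Their median was 41 probes, and of all genes with 31 to 45 probes 16.4%, 18.5% and 17.8% were called. The highest of the 89 were Gbx2, of the midbrain and hindbrain border (2.96 ± 1.22), and 3 of the Nkx family, Nkx2-1 (2.54 ± 0.83), Nkx2-4 (2.45 ± 0.83) and Nkx6-2 (2.35 ± 0.60). GC-adjusted, Gbx2 stood at 2.93, Nkx2-4 at 1.78 and Nkx6-2 at 1.65, all called, and Nkx2-1 at 1.29, not called. The medians of the highest set mean with measured spots were 1.39 in the Hox genes, 1.24 in these 89 genes and 0.98 in all genes. With all spots they were 1.20, 1.24 and 1.15. Among genes with 31 to 45 probes, the median was 1.19 in the Hox genes and 1.25 in all genes with all spots, and 1.27 and 1.1 with measured spots.

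**Figure D5:**
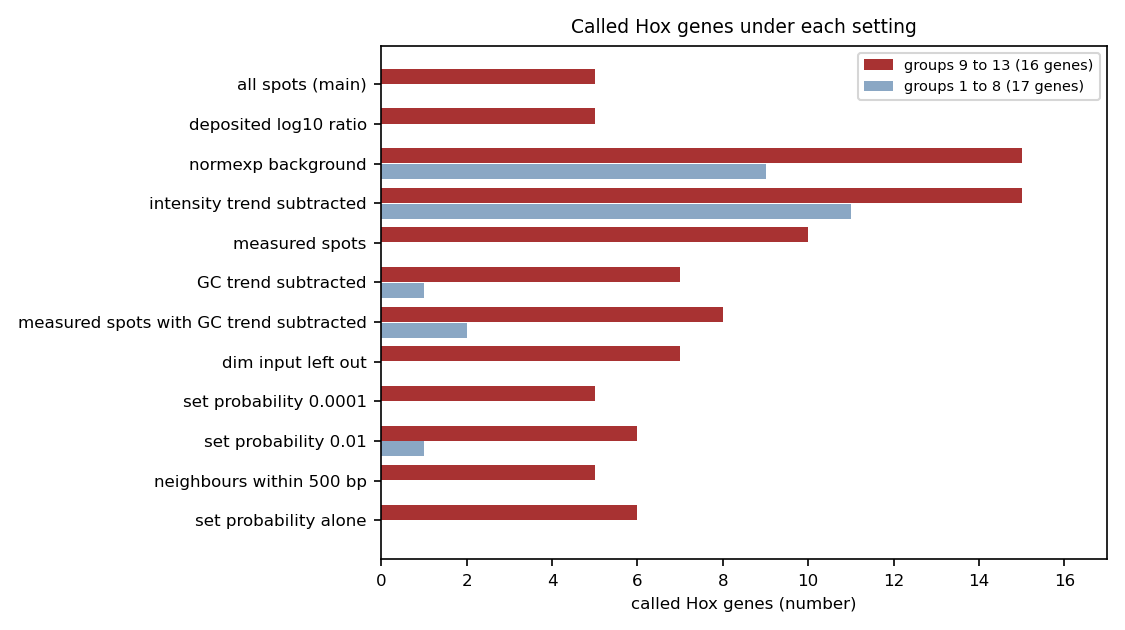
Number of called Hox genes under each of the 12 settings, for the 16 genes of groups 9 to 13 (dark bars) and the 17 genes of groups 1 to 8 (light bars). The dark bar is the longer in every setting, and the light bar is at 0 in 7 of the 12. All settings reprocess the same 2 arrays, and the division was chosen after the values were seen, so their agreement is no test.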

How the data were processed

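The Hox genes and the other gene lists were chosen with earlier results of these data known. Feature Extraction 9.1.1.1 read the 2 two-colour arrays, per the file headers. For each channel the authors deposited a processed intensity, with background subtracted and the dyes scaled linearly, and the deposited log10 ratio (Cy5 over Cy3) was used as an alternative. Genome build, aligner and annotation version are not given in the sources used here. The authors' own calls were not used.

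Log2 ratios of processed intensities were centred on each array's median, leaving out 9 and 18 non-uniform spots. Their scale, from values below the median, was 0.72 and 0.78. A call needed a normal tail below 0.001 for the set mean, and in addition a tail below 0.001 for the probe and 0.1 for a neighbour, or 0.005 for 2 probes. The rule describes scatter only. The number of arrays limits the precision. Genes described in full are those called with all or measured spots and the highest uncalled of each cluster, and of each list at most 4 called members by set mean. A called regulator of the clusters is counted but not reported here by name. Alternatives were the log10 ratio, normexp (offset 50, limma 3.58.1), an intensity trend, measured spots, the GC trend, dim input, set tails of 0.0001 and 0.01 or the set tail alone, 500 bp, and GC bins of 4%. Symbols follow RefSeq, GRCm38.p6. Promoters of 18 Hox genes were found there, and 15 matched probes. Python 3.11.15 and R 4.3.3 were used.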

Additional observations from a re-analysis of the deposited data

How the results depend on the processing

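The number of called Hox genes, 5 with all spots, was 24 with normexp, 26 with an intensity trend subtracted, 10 with measured spots, 8 with all spots GC-adjusted and 10 with measured spots GC-adjusted; under the other 6 alternatives it lay between 5 and 7. On array 1 it was 5, and 14 with normexp and 14 with the intensity trend. On array 2 it was 0, and 1 with the log10 ratio, 10 with normexp, 12 with the intensity trend, 5 with measured spots, 2 and 5 with all and measured spots GC-adjusted, 2 without dim input and 1 at a set tail of 0.01. The division by paralog group was added after seeing the data. Groups 9 to 13 had 5 called genes, 15 with normexp, 15 with the intensity trend, 10 with measured spots and 8 with GC-adjusted measured spots. Groups 1 to 8 had 0, and 9, 11, 0 and 2 in the same settings, 1 with all spots GC-adjusted and 1 at a set tail of 0.01. Normexp and the intensity trend also raised the calls in the whole probe set. From all spots to normexp, called probes of any gene went from 5000 to 10532 (array 1) and from 397 to 11265 (array 2). The intensity trend gave 8575 and 14188. These settings used 237186 spots of array 1 and 237167 of array 2. Called Hox probes numbered 10 with all spots (0.803%), 77 with normexp (6.18%) and 93 with the intensity trend (7.47%). Calls under normexp and the intensity trend thus rose outside the Hox genes too. The share of all genes called in these 2 settings is not given here, so the sizes of the rises were not compared. The cause of these changes was not tested. The difference from probes of like GC on array 2 was -0.04, and 0.10 with measured spots. Of 363 values of single genes under alternatives, 289 kept their side of the call, 66 gained a call and 8 lost one. No paired analysis was possible because each gene was measured on 1 array, and for the same reason no replicate could be left out. Surrogates, at 43.3% of Hox probes in the precipitate channel of array 2 and 24.2% on array 1, limit what low signals show.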
